A study of Sus scrofa with 44 samples.

Results

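The dystrophin-glycoprotein complex genes were taken as 8 named genes, found by the gene symbol of their Ensembl pig identifier: DMD, UTRN, DAG1, SGCA, SGCB, SGCD, SNTB1 and DTNA. Of the 8, 6 had values among the 22427 genes of the expression files, and all 6 of these averaged at least 1 TPM (a relative abundance that corrects each gene for transcript length). The identifiers that the name table gives for SGCB (beta-sarcoglycan) and SGCD (delta-sarcoglycan) are not among those genes, so no level is given under their symbols. The complex is the link between the inner cytoskeleton of a muscle fibre and the matrix around it. Dystrophin (DMD) or its relative utrophin (UTRN) binds actin on the inside, and dystroglycan (DAG1) spans the membrane and binds laminin on the outside. The sarcoglycans stabilise it in the membrane, and syntrophins (SNTB1) and dystrobrevin (DTNA) attach on the cytoplasmic side. In developing muscle, utrophin is known to occupy much of the membrane before dystrophin takes its place.

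The samples were pig (Sus scrofa) longissimus dorsi, a back muscle, collected at 33, 40, 50, 60, 70 and 95 days post coitus and named E33 to E95. Each stage had 3 input libraries and 3 libraries of RNA pulled down by an anti-m6A antibody (m6A, N6-methyladenosine, is a methyl mark on mRNA), all from rRNA-depleted RNA, making 36 muscle samples. The other 8 samples were PK15, a pig kidney cell line, as 2 input and 2 immunoprecipitated libraries each from polyA RNA and from rRNA-depleted RNA. Stage was the only factor among the muscle samples. Nothing in the labels says that the 3 libraries of a stage came from separate fetuses, so p-values measure the spread between these libraries, which may be technical.

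Input libraries differed in how much of the TPM 1 gene held. ENSSSCG00000032395 took 37.4% to 72.4% of each library, and ENSSSCG00000032599 took 17.3% in E40 replicate 2 and 14.4% in E50 replicate 3. TPM was therefore divided by a median-ratio factor per library (0.301 to 2.00, from 14215 genes above 0 in every library), and the result is called scaled TPM. On the deposited TPM the median of all 13334 genes tested moved by -1.02 on the log2 scale between E33 and E95, and on scaled TPM it moved by 0.00. Depth is unknown, so no counting interval can be given. The muscle label was borne out by the marker genes: the summed scaled TPM of ACTA1, DES, CKM, TNNT3 and MYOG was 717 to 868 at E33 and 9121 to 14704 at E95, and 4 of these 5 genes were called higher at E95.

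On scaled TPM, DMD, DAG1, SGCA, SNTB1 and DTNA were higher at E95 than at E33, and UTRN was not called between these stages. By limma's moderated F test over the 6 stages on log2(scaled TPM + 1), all 6 measured genes differed between stages, where 47.3% of all genes did (threshold 0.05 after Benjamini-Hochberg adjustment across the genes tested). In E95 against E33, 5 of the 6 were called, all 5 higher, where 46.7% of all genes were called and 23.7% were called higher. In E40 against E33 DMD, DAG1, SGCA, SNTB1 and DTNA were called, all 5 higher, where 20.9% of all genes were called and 9.97% were called higher. Later steps held few calls: 1 gene, higher, in E50 against E40 (1.51% of all genes, 0.975% higher), 0 in E60 against E50 (0.817%), 0 in E70 against E60 (1.73%) and 2 in E95 against E70 (13.6%), 1 of them higher (6.84%) and 1 lower (6.73%). In the steps with 0 calls, limma gave an unadjusted p under 0.05 for 1 gene in E60 against E50 (DTNA) and 3 in E70 against E60 (DMD, SNTB1 and DTNA). The median change of the 6 genes from E33 to E95 was 1.53 on the log2 scale. These calls rest on the scaling: on TPM as deposited the F test called 0 of the 6 genes (20.1% of all genes), and E95 against E33 called 1, UTRN, as lower (48.5% of all genes called, 45.8% lower). The steps E40 against E33, E50 against E40, E60 against E50, E70 against E60 and E95 against E70 then called 0 members (4.87%, 0.0075%, 0.06%, 0.0825% and 0.285% of all genes).

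**Figure D1:**
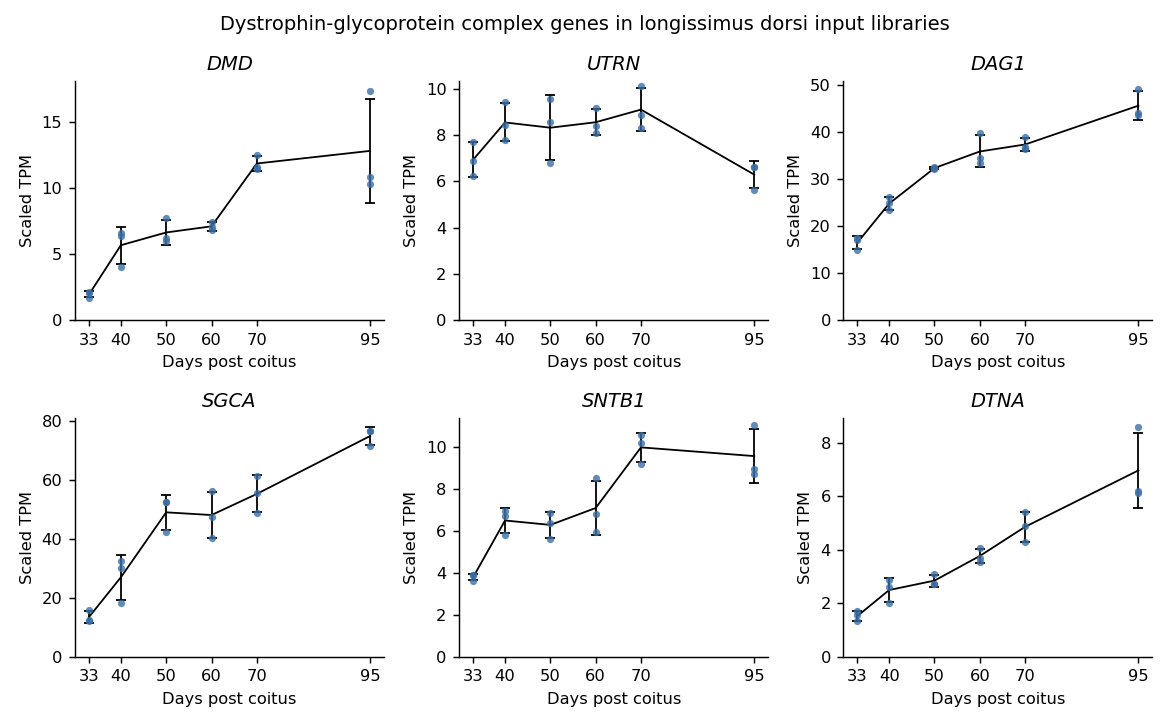
Scaled TPM (vertical axis, starting at 0) of the 6 measured complex genes against days post coitus (horizontal axis); each point is 1 input library, and the line joins stage means with bars of 1 SD (n = 3). DMD, DAG1, SGCA, SNTB1 and DTNA have all 3 E95 libraries above all 3 E33 libraries, while UTRN at E95 (5.62 to 6.62) overlaps E33 (6.23 to 7.70).

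DMD encodes dystrophin, the long rod-shaped protein whose loss causes Duchenne muscular dystrophy (Ensembl ENSSSCG00000028148, chrX:27028223-29650728 on the minus strand of Sscrofa11.1). In scaled TPM its 3 libraries read 2.04, 2.16 and 1.68 at E33, and 6.37, 4.05 and 6.58 at E40. They read 6.18, 7.76 and 5.96 at E50, and 6.79, 7.05 and 7.45 at E60. The last stages read 12.5, 11.6 and 11.4 at E70, and 10.3, 10.8 and 17.3 at E95. Libraries of neighbouring stages did not overlap between E33 and E40 or between E60 and E70, the later stage being higher both times, and overlapped at the other 3 steps. From E33 to E40 DMD rose by 1.15 (SE 0.18) on the log2(scaled TPM + 1) scale, with a limma adjusted p of 0.000469. From E60 to E70 the difference was 0.67 (SE 0.18) and did not pass, at a limma adjusted p of 0.0860. That step would have been called without E40 replicate 2 (0.0409) or without E95 replicate 3 (0.0266), by the same limma test. From E33 to E95 DMD rose by 2.19 (SE 0.18, limma adjusted p = 1.705e-07), and its mean scaled TPM went from 1.96 ± 0.25 to 12.8 ± 3.9 (SD, n = 3), 6.53-fold. The change was 1.17 on TPM as deposited and missed the threshold there, with a limma adjusted p of 0.0584.

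UTRN encodes utrophin, the closest relative of dystrophin (ENSSSCG00000004123, chr1:20514264-21047927, minus strand). Scaled TPM was 6.88, 7.70 and 6.23 at E33, 9.41, 7.78 and 8.43 at E40, and 6.81, 9.56 and 8.57 at E50. It was 8.09, 9.18 and 8.37 at E60, 8.88, 8.30 and 10.1 at E70, and 6.61, 5.62 and 6.62 at E95. All 18 libraries lay between 5.62 and 10.1, and E95 had the lowest stage mean, 6.29 ± 0.58 (SD, n = 3). Libraries of E33 and E40 did not overlap, but that difference, 0.27, missed the threshold (limma adjusted p = 0.124). From E70 to E95 UTRN fell by 0.47 (SE 0.12) on the log2 scale, with a limma adjusted p of 0.0156 and no overlap of libraries. That call was lost without E70 replicate 3 (limma adjusted p = 0.0731) or without E95 replicate 2 (0.0723). The F test over stages gave UTRN an adjusted p of 0.0221, and 0.0722 without E95 replicate 2. Between E33 and E95 the difference was -0.12 (SE 0.12, limma adjusted p = 0.421). On TPM as deposited that difference was -1.23 with an adjusted p of 0.0345, beside a median of -1.02 over all genes.

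The ratio of DMD to UTRN TPM within a library does not depend on how that library is scaled. Its values were 0.296, 0.281 and 0.270 at E33, so UTRN was the higher of the pair in each of these libraries. The E40 values were 0.677, 0.521 and 0.781. At E50 the libraries read 0.908, 0.811 and 0.696, close to the 0.840, 0.768 and 0.890 of E60. DMD exceeded UTRN at E70 (1.41, 1.40 and 1.13) and at E95 (1.56, 1.92 and 2.62). The order of the pair was thus reversed in all 6 libraries of E70 and E95 relative to all 12 libraries of the earlier stages.

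The stage means of the ratio were 0.282 ± 0.013, 0.660 ± 0.131, 0.805 ± 0.106, 0.832 ± 0.062, 1.31 ± 0.16 and 2.03 ± 0.54 (SD, n = 3 each). Neighbouring stages did not overlap at E33 to E40, E60 to E70 and E70 to E95, and overlapped at E40 to E50 and E50 to E60. The 9 libraries of E60 to E95 had a mean log2 ratio 1.29 above that of the 9 libraries of E33 to E50. The exact two-sided permutation p was 0.000452, with libraries as units. Libraries of a stage share their age, and with stages as units 3 against 3 cannot give a p below 0.10. Between E50 and E60, where the split lies, the mean log2 ratio differed by 0.05 (exact permutation p = 0.7). The difference of 1.29 therefore does not place a change at the split. Without E33 the difference was 0.84 (exact permutation p = 0.00440), a check chosen after seeing the data. Without E70 and E95 it was 0.66 (exact permutation p = 0.10). From E33 to E95 the mean log2 ratio went from -1.83 to 0.99, a 7.04-fold difference of the geometric mean, with all 3 libraries above all 3. The exact permutation p of that comparison was 0.10, the smallest that 3 against 3 can give.

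**Figure D2:**
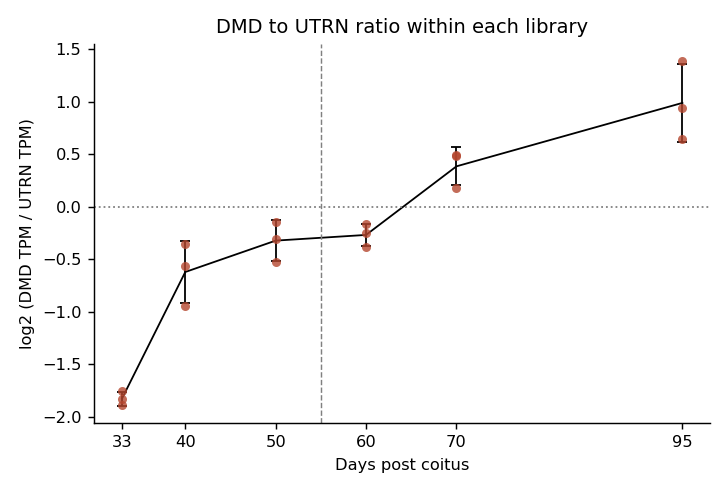
log2 of DMD TPM over UTRN TPM (vertical axis) in each input library against days post coitus (horizontal axis); points are libraries, the line joins stage means with bars of 1 SD (n = 3), the dotted line marks equal TPM and the dashed line the split between earlier and later stages. All libraries up to E60 lie below 0 and all E70 and E95 libraries lie above 0.

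Dystrophin and utrophin mRNA also carried m6A peaks. A peak is a region where reads of the immunoprecipitated RNA exceeded those of the input, and its fold enrichment and boundaries are those of the authors' peak caller. There was 1 list per stage and 1 per PK15 preparation, with no replicates, so no difference of fold or of presence between lists was tested. Peaks were placed on the longest RefSeq transcript of each gene in Sscrofa11.1. DMD had 2, 4, 5, 3, 7 and 5 peaks from E33 to E95 and none in either PK15 list, and the expression of DMD in PK15 was not analysed here. UTRN had 4, 4, 4, 2, 4 and 4 peaks in muscle, 1 in PK15 polyA RNA and 3 in PK15 rRNA-depleted RNA.

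The 2 genes shared the position of their highest muscle peak. In DMD this was the site over exons 25 to 27 of 78, present at all 6 stages with fold enrichments of 4.86, 7.29, 4.99, 3.44, 4.05 and 4.72. In UTRN it was the site over exons 24 to 26 of 74, also present at all 6 stages, with 3.36, 3.56, 2.77, 2.43, 2.63 and 2.97. It was present in PK15 rRNA-depleted RNA too, with a fold of 2.34. The DMD site exceeded the median fold of the list at E33, E40, E50 and E95. It lay below the median at E60 (4.06) and E70 (4.22). All other DMD peaks and every UTRN peak lay below the median fold of their list. When the 2 coding sequences were aligned end to end (10177 aligned bases, 61.2% identical), DMD exon 26 faced UTRN exon 25 over 171 bases at 63.7% identity. Of the 241 bases of DMD coding sequence under this site, 238 faced bases inside a UTRN muscle peak. DMD exon 26 was held by 16 of 22 RefSeq transcripts, and UTRN exon 25 by 13 of 16.

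The blocks of this site that were covered in every muscle list are shown to let the facing exons be compared. Capitals mark 4 cores of the motif in which m6A is known to be placed. They are GGAC itself, AGAC with its first base changed, GAAC with its middle base changed, and AAAC with both changed. These cores cannot overlap one another. Forms of the motif that start with T were not marked or counted. Each is written 5′ to 3′ on the strand of the mRNA, read from Sscrofa11.1 with exons from RefSeq.
DMD exon 26, chrX:28454617-28454787: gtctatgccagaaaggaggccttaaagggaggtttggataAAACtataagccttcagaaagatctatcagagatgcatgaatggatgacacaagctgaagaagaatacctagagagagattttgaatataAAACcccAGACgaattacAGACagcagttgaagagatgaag
UTRN exon 25, chr1:20852833-20852982: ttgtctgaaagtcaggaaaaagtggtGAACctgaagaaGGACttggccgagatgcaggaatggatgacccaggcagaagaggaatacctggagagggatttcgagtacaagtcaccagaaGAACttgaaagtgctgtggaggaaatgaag
DMD exon 27, chrX:28447756-28447819: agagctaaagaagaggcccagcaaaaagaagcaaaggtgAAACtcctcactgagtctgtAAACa
UTRN exon 26, chr1:20850997-20851057: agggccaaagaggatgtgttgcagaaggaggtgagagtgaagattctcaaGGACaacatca
The DMD exon 26 block held 4 of the cores and no GGAC on either strand, while 70.4% of the 5789 muscle peaks within 10% of its length held GGAC and 98.1% held one of the 4 cores. The UTRN exon 25 block held 3 cores, 1 of them GGAC, beside 65.5% and 96.2% of 4789 muscle peaks of like length. A block, here and below, is the part of a site shared by its lists within 1 exon, while these shares are of whole peaks. The DMD exon 26 block, of 171 bases, belonged to peaks of 241 bases. Over the whole transcript, GGAC stood at 0.071 per 100 bases inside DMD muscle peaks (1 GGAC in 1409 bases) and 0.317 outside. For UTRN it stood at 0.612 inside (7 in 1144 bases) and 0.322 outside. The 4 cores together were about as dense inside DMD peaks (2.06 per 100 bases) as outside (2.05), and denser in UTRN peaks (2.80) than outside (1.95). These counts are descriptions of letters and were not tested.

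The other sites of both genes had lower folds. Peaks were chained into a site wherever they shared bases, so peaks at the ends of a site need not overlap each other. DMD had a site over exons 38 to 41 with a peak at each of the 6 stages (fold 2.15 to 2.93), of which 5 shared bases in exons 38 and 39 while the E40 peak lay in exons 40 and 41. It also had a site over exons 28 to 30 in the 5 lists from E40 on (1.99 to 3.04). The block of the latter site shared by its lists, in exon 29, had 4 cores and no GGAC. Of the 451 coding bases under the site of exons 38 to 41, only 202 faced any UTRN base in the alignment. Of these 202, 61 faced a UTRN muscle peak, over UTRN exons 37 and 38. That UTRN peak was present at E70 (1.67) and in PK15 rRNA-depleted RNA (1.72). The other 5 DMD sites apart from exons 25 to 27 faced no UTRN muscle peak, and 4 of them were listed at 1 to 3 stages only, with folds of 1.56 to 2.58. UTRN had a further site over exons 16 to 18 (1.74 to 2.94) with a peak at each of the 6 stages, at most 5 of them over the same base: the E60 peak, in exon 16, shared none with those at E50, E70 and E95. Its site over exons 41 to 43 had no E60 peak (1.72 to 2.74 at the other 5 stages), and at most 4 stages covered the same base. Its site over exons 69 and 70 was listed at E33, E40, E50 and E95 (1.97 to 2.40).

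**Figure D3:**
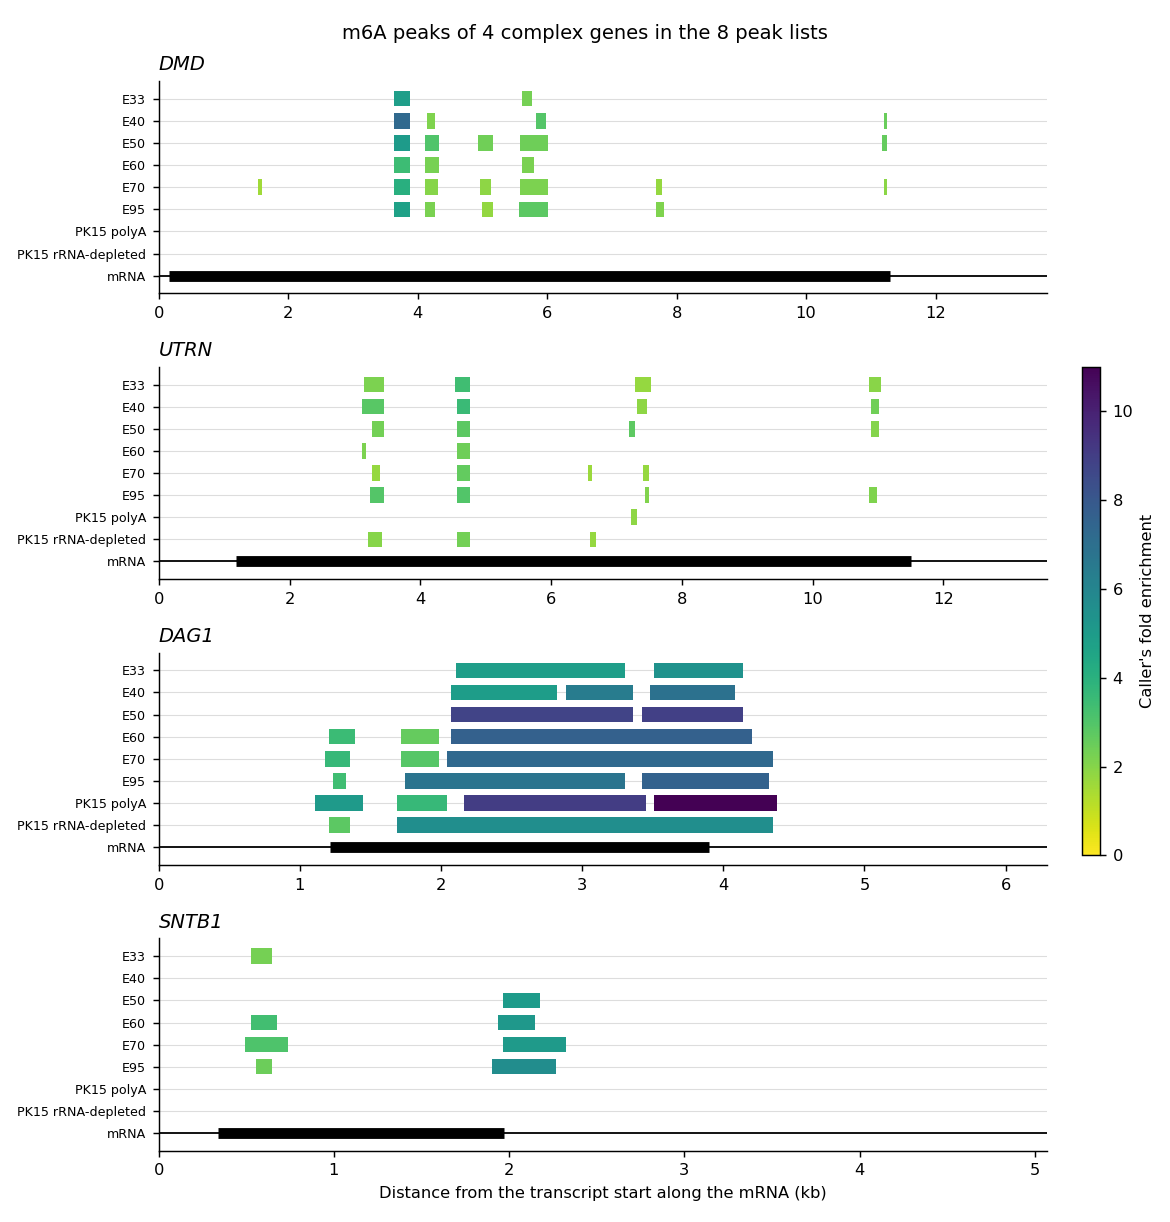
m6A peaks along the mRNA of DMD, UTRN, DAG1 and SNTB1; the horizontal axis is distance from the transcript start in kb, each row is 1 peak list, colour gives the caller's fold enrichment, and the bottom row shows the transcript with coding sequence thick. DMD and UTRN have an upright column of peaks at all 6 stages centred near bases 3731 and 4630 of the mRNA, inside the coding sequence, while DAG1 and SNTB1 have peaks across the end of the coding sequence.

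DAG1 encodes dystroglycan, cut into an outer laminin-binding part and a part that spans the membrane and binds dystrophin (ENSSSCG00000034357, chr13:32028019-32092450, plus strand). Scaled TPM was 17.1, 14.8 and 17.5 at E33, 24.8, 23.3 and 26.1 at E40, and 32.1, 32.5 and 32.2 at E50. It was 33.3, 34.4 and 39.7 at E60, 38.9, 36.2 and 36.7 at E70, and 43.9, 43.6 and 49.0 at E95. Libraries of neighbouring stages overlapped only between E60 and E70. DAG1 rose by 0.56 (SE 0.09) from E33 to E40 and by 1.42 (SE 0.09) from E33 to E95 on the log2 scale, with limma adjusted p of 0.000540 and 1.318e-08. The steps from E40 to E50 (0.37) and E70 to E95 (0.28) missed the threshold with limma adjusted p of 0.0531 and 0.0505. The first of these passed without E33 replicate 2, E60 replicate 3 or E95 replicate 3 (0.0455 to 0.0491), the other without E33 replicate 2, E40 replicate 2 or E60 replicate 3 (0.0400 to 0.0492). The deposited TPM of DAG1 differed by 0.18 between E33 and E95, with a limma adjusted p of 0.761.

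DAG1, too, had a peak at every stage, with a higher top fold than DMD and UTRN in each muscle list except E40, where DMD had 7.29. Its site in exon 4, the last exon, ran from coding sequence into the 3′ UTR in all 8 lists, with folds of 5.41, 6.90, 8.90, 7.64, 7.27 and 7.57 in muscle. PK15 had 11.0 in polyA RNA and 5.62 in rRNA-depleted RNA, and a further PK15 polyA peak (3.60) lay upstream, outside the longest transcript's exons. A further site in exon 3, at the start of the coding sequence, was present at E60, E70 and E95 (3.39 to 3.63) and in both PK15 lists (5.07 and 2.79), and was not listed at E33, E40 and E50. Its E95 peak began past the start codon, and the other 4 crossed it. Inside the block of exon 4 common to every muscle list and crossing the stop codon (chr13:32089668-32090236), GGAC occurred 3 times, and 93.7% of 1107 muscle peaks of like length hold it. Each occurrence is shown with 13 bases on either side, GGAC in capitals, to place it around the stop codon; it starts at -330, -156 and 143 bases from the last coding base.
DAG1 coding, chr13:32089708-32089737: agctcacccttgaGGACcaggccaccttca
DAG1 coding, chr13:32089882-32089911: ctcctctgaaccaGGACaccgtgggagagt
DAG1 3′ UTR, chr13:32090181-32090210: acacacagggcctGGACaagcccgccctct

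SGCA encodes alpha-sarcoglycan, a membrane protein of the complex that is specific to striated muscle (ENSSSCG00000017583, chr12:26356691-26368561, plus strand). Scaled TPM was 12.6, 15.8 and 12.3 at E33, 30.2, 18.2 and 32.4 at E40, and 52.3, 42.2 and 52.3 at E50. It was 47.5, 56.2 and 40.4 at E60, 61.3, 48.8 and 55.5 at E70, and 76.6, 71.5 and 76.3 at E95. E33 and E95 each stood clear of every other stage, while E50, E60 and E70 overlapped. SGCA rose by 2.39 (SE 0.19) from E33 to E95 (limma adjusted p = 1.271e-07), the largest change of the 6 genes on the log2(scaled TPM + 1) scale. By the fold of mean scaled TPM it rose less than DMD, 5.52-fold against 6.53-fold. From E33 to E40 SGCA rose by 0.91 (limma adjusted p = 0.00393). It was also the 1 gene called in E50 against E40, higher by 0.87 with a limma adjusted p of 0.0354. That call was lost when any of 7 libraries was left out: E33 replicate 1, E40 replicates 1 and 2, E50 replicates 1 and 3, E70 replicate 3 or E95 replicate 1 (limma adjusted p 0.0504 to 0.144). On TPM as deposited the difference from E33 to E95 was 1.16 with a limma adjusted p of 0.0854. SGCA had a peak in the E70 list only (chr12:26370690-26370839, fold 19.8), which lay beyond the end of its RefSeq gene.

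SGCB and SGCD, the beta and delta subunits that form the core of the sarcoglycan complex, had no peak and no level under their own identifiers. By position, 1 identifier without a symbol, ENSSSCG00000008833, had peaks inside the RefSeq gene of SGCB (chr8:39130371-39148756, minus strand) in all 8 lists. Those inside the gene had folds of 1.39 to 2.54 in muscle and 2.98 and 2.24 in PK15. Its scaled TPM was 26.2, 30.5 and 29.9 at E33 and 61.3, 76.8 and 61.0 at E95, with no overlap. The log2 difference was 1.17 (limma adjusted p = 4.308e-06), and -0.08 on TPM as deposited (0.905). Some of its peaks lay outside the RefSeq SGCB gene, with folds of up to 5.01, at E50. The RefSeq SGCB transcript has 960 bases, all 960 of them coding, so it holds no untranslated part. Peaks outside it may lie in untranslated parts of SGCB or in another gene, which was not tested. The identifier is therefore not counted among the members. No peak lay in the RefSeq gene of SGCD.

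SNTB1 encodes beta-1-syntrophin, an adaptor that docks signalling proteins on dystrophin and dystrobrevin (ENSSSCG00000005994, chr4:18288756-18524362, plus strand). Scaled TPM was 3.63, 3.88 and 3.91 at E33, 6.71, 5.81 and 6.95 at E40, and 5.61, 6.87 and 6.37 at E50. It was 6.82, 5.93 and 8.50 at E60, 10.5, 9.19 and 10.2 at E70, and 8.70, 8.96 and 11.0 at E95. As for DMD, libraries did not overlap from E33 to E40 and from E60 to E70, and overlapped at the other steps. SNTB1 rose by 0.64 (SE 0.12) from E33 to E40 and by 1.13 (SE 0.12) from E33 to E95, with limma adjusted p of 0.00182 and 2.244e-06. The step from E60 to E70 (0.45) missed the threshold at 0.0784 and passed without E60 replicate 3 (limma adjusted p = 0.0294). Without scaling the difference of SNTB1 from E33 to E95 was 0.04, with a limma adjusted p of 0.951.

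SNTB1 had 2 sites. One, in exon 2, was present at E33, E60, E70 and E95 with folds of 2.30, 3.31, 3.07 and 2.48. The other, in exon 8 around the stop codon, was present at E50, E60, E70 and E95 with folds of 5.01, 5.14, 5.07 and 5.63. No SNTB1 peak was listed at E40 or in PK15. The part of the exon 2 site common to its lists was 83.5% G and C and held 1 GGAC, as did 51.4% of 3530 muscle peaks of like length; it is shown with GGAC in capitals.
SNTB1 exon 2, chr4:18289475-18289565: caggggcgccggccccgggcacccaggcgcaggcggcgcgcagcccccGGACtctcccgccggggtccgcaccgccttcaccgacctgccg
The exon 8 site held GGAC 2 times, 37 and 62 bases past the last coding base, and 70.4% of 5799 muscle peaks of like length hold it. Both are shown with 13 bases on either side, since they lie in the 3′ UTR next to the stop codon.
SNTB1 3′ UTR, chr4:18521284-18521313: gaaaaggaggctgGGACgccaccaaaaagg
SNTB1 3′ UTR, chr4:18521309-18521338: aaagggtcatattGGACaccatttgcagtg

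DTNA encodes alpha-dystrobrevin, which binds dystrophin and syntrophins (ENSSSCG00000028047, chr6:118333069-118753516, plus strand). Scaled TPM was 1.56, 1.70 and 1.32 at E33, 2.86, 2.02 and 2.62 at E40, and 2.73, 3.10 and 2.71 at E50. It was 3.71, 3.54 and 4.07 at E60, 5.40, 4.29 and 4.89 at E70, and 6.13, 6.21 and 8.58 at E95. Neighbouring stages overlapped only between E40 and E50. DTNA rose by 1.65 (SE 0.12) from E33 to E95 (limma adjusted p = 8.394e-08). Its rise of 0.46 from E33 to E40 had a limma adjusted p of 0.0179, and lost the call without E33 replicate 3, E40 replicate 1 or E40 replicate 3 (0.0646 to 0.0838). Its rise of 0.43 from E70 to E95 had a limma adjusted p of 0.0319, and lost the call without E70 replicate 2, E70 replicate 3 or E95 replicate 3 (0.0772 to 0.130). Without scaling the difference of DTNA from E33 to E95 was 0.70 (limma adjusted p = 0.152). No list held a DTNA peak.

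The order of the 6 genes by scaled TPM, a per-length scale, changed over gestation. At E33 it ran DAG1 (16.5), SGCA (13.5), UTRN (6.94), SNTB1 (3.81), DMD (1.96) and DTNA (1.53). DAG1 and SGCA overlapped there, as did DMD and DTNA. At E95 it ran SGCA (74.8), DAG1 (45.5), DMD (12.8), SNTB1 (9.56), DTNA (6.97) and UTRN (6.29), and DMD and SNTB1 overlapped, as did DTNA and UTRN. UTRN went from the third place to the last, and DMD from the fifth to the third. Over the 18 libraries the Pearson correlation of log2(scaled TPM + 1) between pairs of DMD, DAG1, SGCA, SNTB1 and DTNA was 0.838 to 0.965. Between UTRN and each of them it was -0.039 to 0.201. These values are descriptions, since libraries of a stage share their age. The genes most like DMD over the 18 libraries were TRDN (0.983), ABCC9 (0.981) and TMEM182 (0.979), of which TRDN encodes triadin of the calcium release unit. Those most like UTRN were RSRC1 (0.906), GALK2 (0.856) and CDK6 (0.839).

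Counted by list, the members with a peak under their own identifier numbered 4, 3, 4, 4, 5 and 4 in the muscle lists from E33 to E95. Among all 13334 genes tested for expression, 34.8%, 22.5%, 30.4%, 31.4%, 34.4% and 33.7% had one in those lists. The E70 count of members includes SGCA, whose only peak lay beyond the end of its RefSeq gene. Both PK15 lists held peaks of 2 members, UTRN and DAG1, beside 57.1% of the same muscle-expressed genes in polyA and 37.1% in rRNA-depleted RNA. Peaks that overlapped between lists formed 18 sites, 5 of them with peaks at all 6 stages: 2 in DMD, 2 in UTRN and 1 in DAG1. In 3 of the 5 the same bases were covered at all 6 stages: DMD exons 25 to 27, UTRN exons 24 to 26 and DAG1 exon 4. Peaks above the median fold of their own list were fewer, in 2, 2, 3, 2, 3 and 3 members from E33 to E95 and in 1 in each PK15 list. Of the 13334 genes, 22.0%, 13.7%, 18.7%, 19.8%, 21.6% and 21.1% had such a peak from E33 to E95, and 38.2% and 23.0% in the PK15 polyA and rRNA-depleted lists. The E70 count of members above the median includes that SGCA peak, and none of the counts above the median includes UTRN. The transcripts differ in length, from 1446 bases for SGCA to 13724 for DMD and 13585 for UTRN. The part that length or level plays in having a peak was not tested.

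The wider set of 43 genes for the complex, its ligands, partners and the sugar chain of dystroglycan included 34 with values, of which 30 were tested. In E95 against E33, 9 rose and 3 fell, with a median change of 0.11 beside 0.00 for all genes. Of all genes tested 46.7% were called in this comparison, 23.7% higher and 23.1% lower, so the share called in this set did not exceed that of all genes. Among 3 tested further subunits of the complex, 1 rose: SSPN, sarcospan, a membrane subunit bound to the sarcoglycans. Its mean scaled TPM went from 4.03 to 22.3, by 2.21 (SE 0.12) on the log2 scale (limma adjusted p = 3.608e-09). SGCE, epsilon-sarcoglycan, differed by 0.31 (0.181) and SNTB2, another syntrophin, by -0.18 (0.105), and neither passed.

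Ligands and matrix genes moved in both directions, with 3 of 8 higher and 2 lower. LAMB2, the laminin beta-2 chain, rose by 2.04 (SE 0.17), from 90.1 to 373 mean scaled TPM. AGRN, agrin, a proteoglycan that clusters acetylcholine receptors and binds dystroglycan, fell by 1.37 (SE 0.21), from 43.0 to 16.3. LAMA4, the laminin alpha-4 chain, fell by 0.51 (SE 0.08). The limma adjusted p of these 3 were 2.439e-07, 9.395e-05 and 0.000105.

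Of 4 adhesion and repair partners 3 rose, among them ITGA7, the muscle laminin receptor integrin alpha-7, by 2.18 (SE 0.17), and DYSF, dysferlin of membrane repair, by 1.21 (SE 0.10). Of 15 genes that build the sugar chain by which dystroglycan binds laminin, 2 rose and 1 fell. The one that fell was B4GAT1, a glucuronyltransferase, by 0.72 (SE 0.19, limma adjusted p = 0.00585). On TPM as deposited 14 of the 30 genes were called, 0 higher and 14 lower, beside 48.5% of all genes called, 45.8% lower, and a median of -1.02 for all genes. On that scale SSPN, ITGA7, LAMB2 and DYSF differed by 1.08, 0.96, 0.77 and 0.06 with limma adjusted p of 0.0651 to 0.917, while AGRN, B4GAT1 and LAMA4 stayed called as lower.

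**Figure D4:**
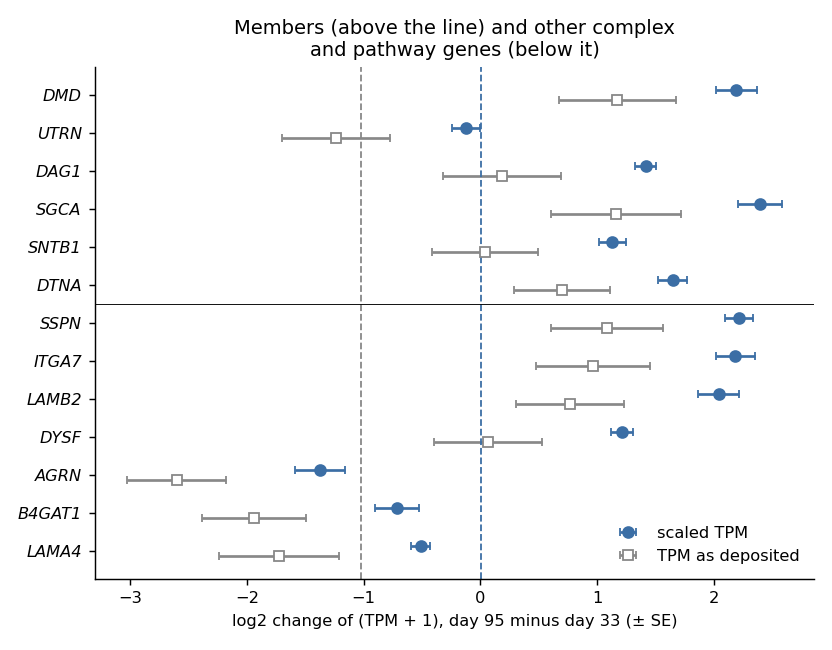
log2 change of TPM + 1 from day 33 to day 95 (horizontal axis, bars of 1 SE from limma) for the 6 measured complex genes above the line and the 7 named genes of the wider set below it, on scaled TPM (filled) and on TPM as deposited (open); dashed lines give the median of all genes on each scale, 0.00 and -1.02. Each gene sits to the left on the deposited scale, by about the shift of the median, and DMD, SGCA and SSPN stay to the right of 1 on both.

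Levels of other cell types moved alongside these changes, and in bulk tissue fewer cells of a type and less RNA per cell cannot be told apart. Of 5 skeletal muscle markers 4 were called higher at E95, and the median log2 change of the 5 was 3.95; MYOG had a mean scaled TPM of 124 at E33 and 120 at E95. Relative to DES, the desmin of muscle fibres, the mean log2 ratio of DMD was -6.27 ± 0.32 at E33 and -6.96 ± 0.74 at E95 (SD, n = 3), with overlapping libraries. For SGCA this ratio went from -3.48 ± 0.32 to -4.37 ± 0.43, and for UTRN from -4.44 ± 0.28 to -7.95 ± 0.50, both without overlap. DAG1, SNTB1 and DTNA also stood lower relative to DES at E95, by means of -3.20 against -5.09, -5.31 against -7.35 and -6.63 against -7.81. None of the 6 genes had a higher mean ratio to DES at E95 than at E33. At E40 the mean for DMD was -5.75 ± 0.48, above E33 with overlapping libraries, while every other member stood below its E33 mean. Relative to ACTA1, DMD went from -7.66 ± 0.37 at E33 to -6.69 ± 0.40 at E40, without overlap, and -8.94 ± 0.69 at E95. DAG1, SGCA, SNTB1 and DTNA also had higher mean ratios to ACTA1 at E40 than at E33, and UTRN a lower one, all with overlap.

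At E33, where the first step of DMD, DAG1, SGCA, SNTB1 and DTNA starts, some markers of other cell types stood high. HBZ, an embryonic globin, had 101, 73.1 and 215 scaled TPM at E33 and stage means of 0.993 to 2.98 later, whereas the other erythroid marker, ALAS2, had means of 1.27 at E33 and 1.55 at E95. Schwann cell and nerve markers (4 of 4 matched) summed to 105 to 132 at E33, 22.4 to 26.5 at E40 and 17.1 to 75.7 at E95, with NEFL at means of 105 at E33 and 3.40 at E95. Cartilage markers (3 of 3) summed to 109 to 154 at E33 and 29.3 to 37.6 at E95. Endothelial markers (3 of 3, all 3 called higher at E95) summed to 15.6 to 20.4 at E33 and 57.7 to 70.7 at E95. Smooth muscle markers (3 of 3) summed to 12.5 to 24.2 at E33, 49.3 to 66.4 at E70 and 13.6 to 31.9 at E95. The fibroblast sum (3 of 3) was 1648 to 2281 at E33 and 3857 to 5868 at E95, nearly all of it COL1A1; COL1A1 had means of 1957 and 4641, DCN of 23.9 and 49.0, and PDGFRA of 43.9 and 18.7. The macrophage and leukocyte sum (3 of 3) was 5.44 to 8.42 at E33 and 12.4 to 17.7 at E95. Of the muscle progenitor markers, MYF5 had means of 70.4 at E33 and 27.5 at E95, and PAX7 of 12.4 and 13.6. Adipocyte markers were at 0 to 0.206 at E33 and at 48.5 in E95 replicate 1, against 3.48 and 5.23 in the other E95 libraries. The part of these cell types in the levels of the complex genes was not tested.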

How the data were processed

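The authors deposited 1 TPM file per muscle input library, in TPM per the file headers, with 22427 Ensembl genes each; the quantification program is not given in the sources used here. The deposited peak lists hold, per the file headers, the caller's fold ratio and a p-value per peak, 1 list per stage or PK15 preparation; caller, threshold and pooling of replicates are not given in the sources used here. Trimmomatic, HISAT2 and Sscrofa11.1 are named in the submitters' processing notes, without roles. The libraries were prepared from Trizol-extracted, DNaseI-treated RNA and read as pairs on a HiSeq instrument, per the labels' protocols. PK15 expression was not analysed here.

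TPM was scaled by median-ratio factors, and log2(scaled TPM + 1) was tested for 13334 genes, those averaging 1 TPM or more, using R 4.3.3 and limma 3.58.1. The fit had 1 mean per stage over 18 libraries; the call threshold was 0.05 after Benjamini-Hochberg adjustment. Fold changes on this scale understate the change of low genes. The ratio of DMD to UTRN was tested by exact two-sided permutation of libraries. Named genes were the members, the 4 largest rises and 4 largest falls (only 3 fell) among called genes of the wider set in E95 against E33, the 3 genes most correlated with DMD and with UTRN, and the markers. The members and lists were chosen with earlier results of these data known. A symbol table and RefSeq (annotation of Sscrofa11.1) gave names, exons and sequences; 0 of 69804 peaks ran past a chromosome end and 83 of 84 member peaks lay inside the RefSeq gene of that symbol. Peaks sharing at least 1 base were chained into 1 site. The limma script was tested on simulated data. The marker TTN was not matched.

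Alternatives were TPM as deposited, rescaling without the 2 most abundant genes, quantile normalization, a pseudocount of 0.1, no filter, a mean of at least 5 TPM, leaving out libraries, a replicate block and fits on the libraries of both stages only. The depth behind each TPM value is unknown, so precision is that of 3 libraries per stage.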

Additional observations from a re-analysis of the deposited data

How the results depend on the processing

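The scaling of TPM decided most calls. With TPM as deposited the members called fell to 0 in the F test, 1 (UTRN, lower) in E95 against E33, and 0 in E40 against E33, E50 against E40 and E95 against E70, beside a median of all genes of -1.02 from E33 to E95. The identifier placed at SGCB changed sign there, from 1.17 to -0.081. Rescaling without the 2 most abundant genes shifted that median by -0.60 and called 21 genes of the wider set, 5 higher and 16 lower, in place of 12; 5 members stayed higher and UTRN was called lower. That rescaling left 0 members in E50 against E40 and 1 in E95 against E70. Quantile normalization, the replicate block and leaving out E40 replicate 2 and E50 replicate 3 together each left 0 in E50 against E40, while no filter gave 2. Leaving out those libraries gave 1 in E70 against E60. A mean of at least 5 TPM gave 1 in E95 against E70, since DTNA, with a mean of 3.76 TPM, was then not tested. Fits on the libraries of both stages gave 3 in E40 against E33, 0 in E50 against E40, 1 in E70 against E60 and 0 in E95 against E70.

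Leaving out single libraries gave 5 to 6 members in the F test, 5 in E95 against E33 each time, 4 to 5 in E40 against E33, 0 to 2 in E50 against E40, 0 in E60 against E50, 0 to 1 in E70 against E60, 0 to 3 in E95 against E70 and 11 to 13 genes of the wider set. The difference in log2 DMD to UTRN ratio ranged from 1.17 to 1.39 between later and earlier stages, and from 2.62 to 2.99 for E95 against E33. Without E70 and E95 it was 0.66 (exact permutation p = 0.10). Deviations of libraries with equal replicate numbers correlated at -0.124 to 0.101 (median 0.017). Those with unequal numbers correlated at -0.129 to 0.116 (median -0.003). No pairing by replicate number was seen, but this does not exclude one. With the replicate block the ratio difference was 1.29 with an exact permutation p of 0.25, the smallest that 3 pairs allow. Peaks above the median fold of their list were found in 2 members at E33, 2 at E60, 3 at E70 (SGCA among them) and 1 in each PK15 list. Sites shared by all 6 stages numbered 5, or 3 where the same base had to be covered at each stage (added after seeing the data). Other peak settings kept counts within 1.5 times.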
